A study of Mus musculus with 2 samples.

Results

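The 49 genes described here encode the machinery that separates chromosomes and divides the cell: the kinetochore, the spindle checkpoint, the mitotic kinases, the spindle and the cytokinetic ring. They were chosen by symbol from the 54532 gene identifiers of the count table, and all 49 were found. Kinesins other than Cenpe, cyclins and condensins were left out. CD8+ T cells from the spleens of wild-type mice, which the labels also call ND mice without explaining the term, were kept for 8 h either in RPMI 1640 (complete medium) or in RPMI 1640 lacking methionine. The labels name no activating agent and no way of isolating the cells. Each medium is represented by 1 bulk RNA-seq library, so no difference could be set against a spread between cultures and no p-values are printed. The sources used here do not say how many mice were used or whether both cultures share them.

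Kinetochores are protein assemblies on centromeric chromatin that bind spindle microtubules. The spindle checkpoint senses kinetochores that have no microtubules and holds back the anaphase-promoting complex (APC/C), a ubiquitin ligase that triggers chromosome separation and mitotic exit. The transcripts of most of these proteins are made in G2 and mitosis and are scarce in resting lymphocytes, and dividing T cells make them in quantity. In a bulk sample, fewer dividing cells and less of the RNA per dividing cell cannot be told apart.

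Without methionine, 42 of the 49 genes were at least 2-fold lower and none was at least 2-fold higher. Over all 13041 measured genes, those with a mean of 10 counts or more, 9.29% were at least 2-fold lower and 5.80% at least 2-fold higher. All 49 genes passed that minimum. At 1.5-fold 44 of the genes were lower (18.0% of all measured genes), at 4-fold 40 (2.98%), at 8-fold 25 (1.35%) and at 16-fold 14 (0.567%). None was higher at any of these sizes, against 15.7%, 0.920%, 0.238% and 0.0997% of all measured genes. These 14 made up 18.9% of the 74 measured genes that were at least 16-fold lower and 28.6% of the 49. The median log2 difference, methionine-free minus complete, was -3.06, and that of all measured genes was 0.04. Summed over the 49 genes, the level was 3049 CPM in complete medium against 802 CPM in methionine-free medium, CPM being counts per 1000000 after scaling. The 42 lower genes went from 2433 to 272 CPM together, and the other 7 from 617 to 529.8 CPM. Those 7 were Bub3, Mad1l1, Cenpc1, Cenpt, Zwint, Fzr1 and Ckap5, and they held most of what was counted for the 49 genes in the methionine-free library.

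**Figure D1:**
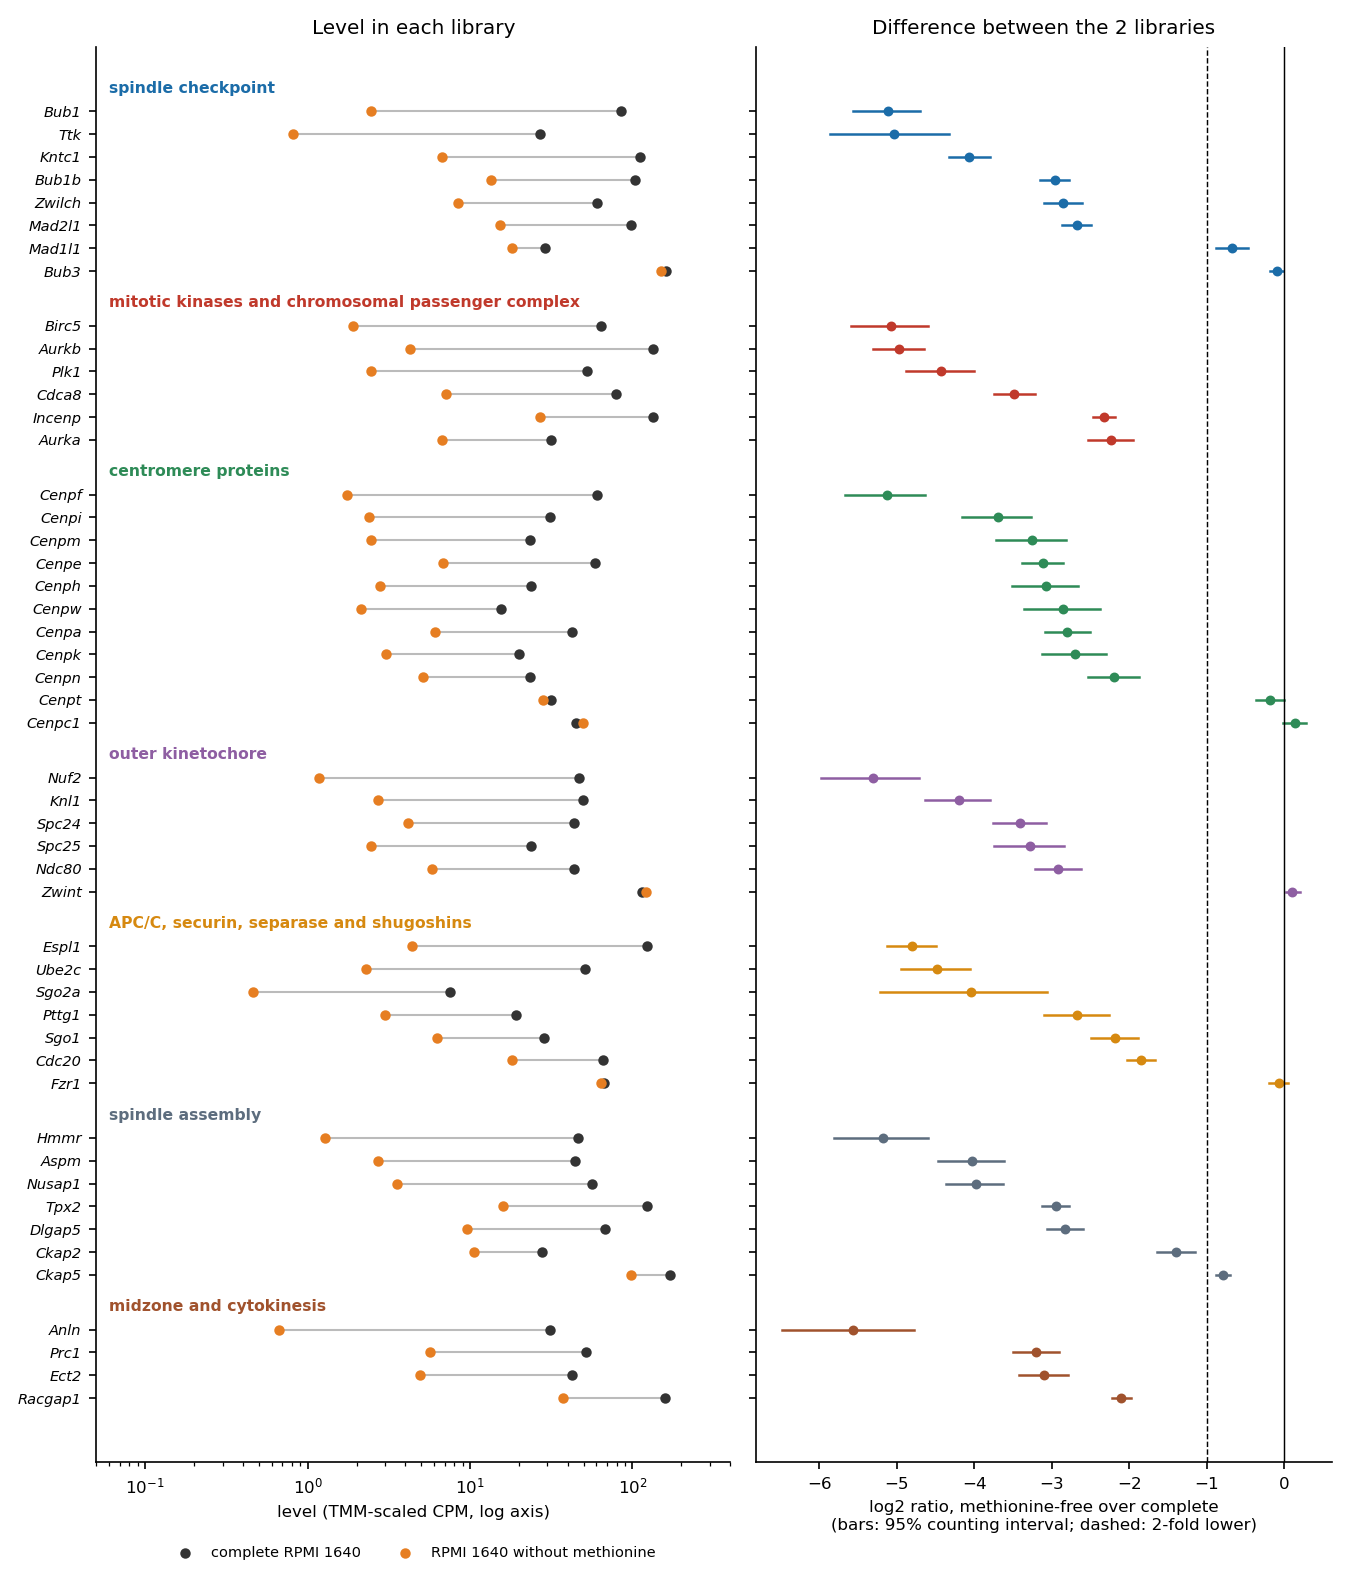
Left, the level of each of the 49 genes in both libraries in TMM-scaled CPM on a log axis, grouped by role; right, the log2 ratio with its 95% counting interval, with the 2-fold line dashed. The orange methionine-free point lies left of the dark complete-medium point for all genes but Cenpc1 and Zwint, and 7 genes lie right of the dashed line.

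The complete-medium library held 14646527 counts and the methionine-free library 19647681, and single genes of the 49 had between 111 and 2494 counts in the first and between 9 and 2935 in the second. The 95% intervals printed after folds cover counting error only. Of 13 T cell genes none was past 2-fold, with log2 differences from -0.93 to 0.12. Cd8a was at 664 and 527 CPM and Cd8b1 at 398 and 358 CPM, Lat, the lowest by difference, was at 290.2 and 152 CPM, 1.91-fold lower, and Cd4 had 9 and 11 counts. Of other cell types, 5 of 7 neutrophil markers were at 0 in both libraries, and the 12 myeloid and dendritic markers summed to 5.11 and 9.70 CPM, of which Flt3 made 2.25 and 7.60 CPM. The 10 B cell markers summed to 212 and 131 CPM, of which Ighm made 196 and 120.1 CPM. The 6 plasma cell markers summed to 185 and 103 CPM, most of it Xbp1, at 166 and 90.7 CPM, which many cells express. The 10 erythroid markers summed to 879 and 535 CPM, nearly all of it Tfrc, the transferrin receptor gene of proliferating cells. Of the globin genes Hba-a2 was at 0 in both, Hba-a1 had 2 and 26 counts and Hbb-bs 19 and 9 counts. The 6 NK markers summed to 162 and 139 CPM, most of it Eomes, which CD8+ T cells also express, with Klrb1c at 0 in both. The 4 CD4 and regulatory T cell markers summed to 64.1 and 60.5 CPM, of which Ikzf2 made 59.8 and 55.1 CPM. Foxp3 was at 3.54 and 3.98 CPM. The labels name a whole-RNA and an mRNA kit without saying which made which library. Rn7sk, an RNA without a poly(A) tail, had 11 and 115 counts, and 6 of the 9 genes of such RNAs were at 0 in both. The part of these marker and kit differences in the results was not tested.

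Many mitotic genes are known to share promoter elements, the cell cycle homology region (CHR), bound by MuvB complexes that repress in resting cells and activate in G2, and CCAAT boxes, bound by NF-Y. Promoters were read from RefSeq (GRCm38.p6), 250 bases before to 50 after the start, for 43 of the 49 genes; Zwilch, Aurkb, Incenp, Spc24, Tpx2 and Dlgap5 had no entry. A CHR match (TTTGAA or TTCGAA, on either strand) was found for 28 of the 43, or 65.1%, against 19.2% of all 32851 promoters and 16.5% of the 9267 measured genes with an entry. A gene was counted where any of its entries held the match. CCAAT, on either strand, was found for 33 of the 43, or 76.7%. It was found in 37.4% of all promoters and for 43.2% of the measured genes with an entry. Both together were found for 25, or 58.1%, against 7.52% and 7.11%. Matches of different motifs can share at most 1 base, and a match is a description, not a bound site. An E2F motif (TTTGGCGC, TTTCCCGC, TTTGCCGC or TTTCGCGC, on either strand) was found for Cenpm alone. It was found in 2.26% of all promoters and for 5.02% of the measured genes with an entry.

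The position was shared as well as the letters. For 26 of the 28 genes with a CHR match, or 92.9%, a match began within 50 bases of the start, while 28.2% of all gene symbols with a CHR match had it there; the 50-base window was chosen after the positions were seen. Of the 404 measured genes with a CHR match in that window, these 26 included, 24.3% were at least 2-fold lower without methionine. The share of all measured genes, with or without a promoter entry, was 9.29%. Among the measured genes with an entry it was 11.9% with a CHR match anywhere in the promoter and 8.09% without. The median log2 difference of the 404 was -0.11. The 11 stretches that follow run from 100 bases before to 20 after the RefSeq start, 5′ to 3′ on the gene's strand, with CHR and CCAAT matches in capitals (TTCAAA and ATTGG are the reverse strand's letters). Bub1, Ttk, Cenpf, Hmmr, Espl1 and Ube2c are shown as genes that were at least 22.3-fold lower and hold both motifs. Cdc20, Bub3 and Ckap5 hold both motifs and differed far less, Fzr1 holds CCAAT only and hardly differed, and Nuf2 holds neither and was 39.7-fold lower.
Bub1 (chr2:127831840-127831959, minus strand): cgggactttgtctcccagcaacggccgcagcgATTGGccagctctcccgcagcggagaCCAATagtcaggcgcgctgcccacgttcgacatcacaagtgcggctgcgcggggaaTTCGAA
Ttk (chr9:83834589-83834708, plus strand): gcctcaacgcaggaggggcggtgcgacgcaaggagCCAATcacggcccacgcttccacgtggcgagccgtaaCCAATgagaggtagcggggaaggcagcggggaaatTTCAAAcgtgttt
Cenpf (chr1:189688067-189688186, minus strand): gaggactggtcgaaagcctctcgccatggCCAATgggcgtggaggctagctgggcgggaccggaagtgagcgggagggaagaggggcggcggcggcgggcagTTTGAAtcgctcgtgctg
Hmmr (chr11:40733418-40733537, minus strand): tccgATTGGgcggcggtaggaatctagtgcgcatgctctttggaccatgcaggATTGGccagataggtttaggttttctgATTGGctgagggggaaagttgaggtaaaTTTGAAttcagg
Espl1 (chr15:102296193-102296312, plus strand): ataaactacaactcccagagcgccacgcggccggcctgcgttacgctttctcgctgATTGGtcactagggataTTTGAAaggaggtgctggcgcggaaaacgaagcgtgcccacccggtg
Ube2c (chr2:164769829-164769948, plus strand): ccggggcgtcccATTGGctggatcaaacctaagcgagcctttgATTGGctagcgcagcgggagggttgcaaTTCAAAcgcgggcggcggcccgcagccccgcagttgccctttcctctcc
Cdc20 (chr4:118437324-118437443, minus strand): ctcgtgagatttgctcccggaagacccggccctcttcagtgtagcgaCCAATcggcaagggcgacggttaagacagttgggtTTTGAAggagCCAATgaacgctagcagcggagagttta
Bub3 (chr7:131560270-131560389, plus strand): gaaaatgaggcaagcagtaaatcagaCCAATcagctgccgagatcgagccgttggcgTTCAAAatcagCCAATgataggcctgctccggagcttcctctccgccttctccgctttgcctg
Ckap5 (chr2:91526662-91526781, plus strand): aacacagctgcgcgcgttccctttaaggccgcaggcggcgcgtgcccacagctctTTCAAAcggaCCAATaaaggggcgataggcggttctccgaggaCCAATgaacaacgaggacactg
Fzr1 (chr10:81378351-81378470, minus strand): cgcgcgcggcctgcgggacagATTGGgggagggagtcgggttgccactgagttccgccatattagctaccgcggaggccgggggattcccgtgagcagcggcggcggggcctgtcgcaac
Nuf2 (chr1:169531445-169531564, minus strand): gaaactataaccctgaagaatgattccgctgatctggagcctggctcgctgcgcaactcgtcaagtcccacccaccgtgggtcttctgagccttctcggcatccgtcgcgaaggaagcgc

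Among the 43 genes, the median log2 difference was -3.21 for the 28 with a CHR match and -2.69 for the 15 without. Both ranges were wide, from -5.50 to -0.10 with a match and from -5.28 to 0.13 without. Of the 36 genes in the table that were at least 2-fold lower, 26 held a CHR match and 28 a CCAAT box. Of the 7 that were not, 2 held a CHR match, namely Bub3 and Ckap5, and 5 a CCAAT box. For CCAAT alone the order was the other way, with a median of -3.09 with the box and -3.44 without. Genes with and without either motif spanned nearly the same range of differences, a range being set by its lowest and highest gene only. Nuf2 and Birc5, among the most different, held neither. Of all measured genes with an entry, these 43 included, 16.5% of those with both motifs were at least 2-fold lower. Of those without both it was 8.11%. Whether the motifs bear on the differences was not tested.

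**Figure D2:**
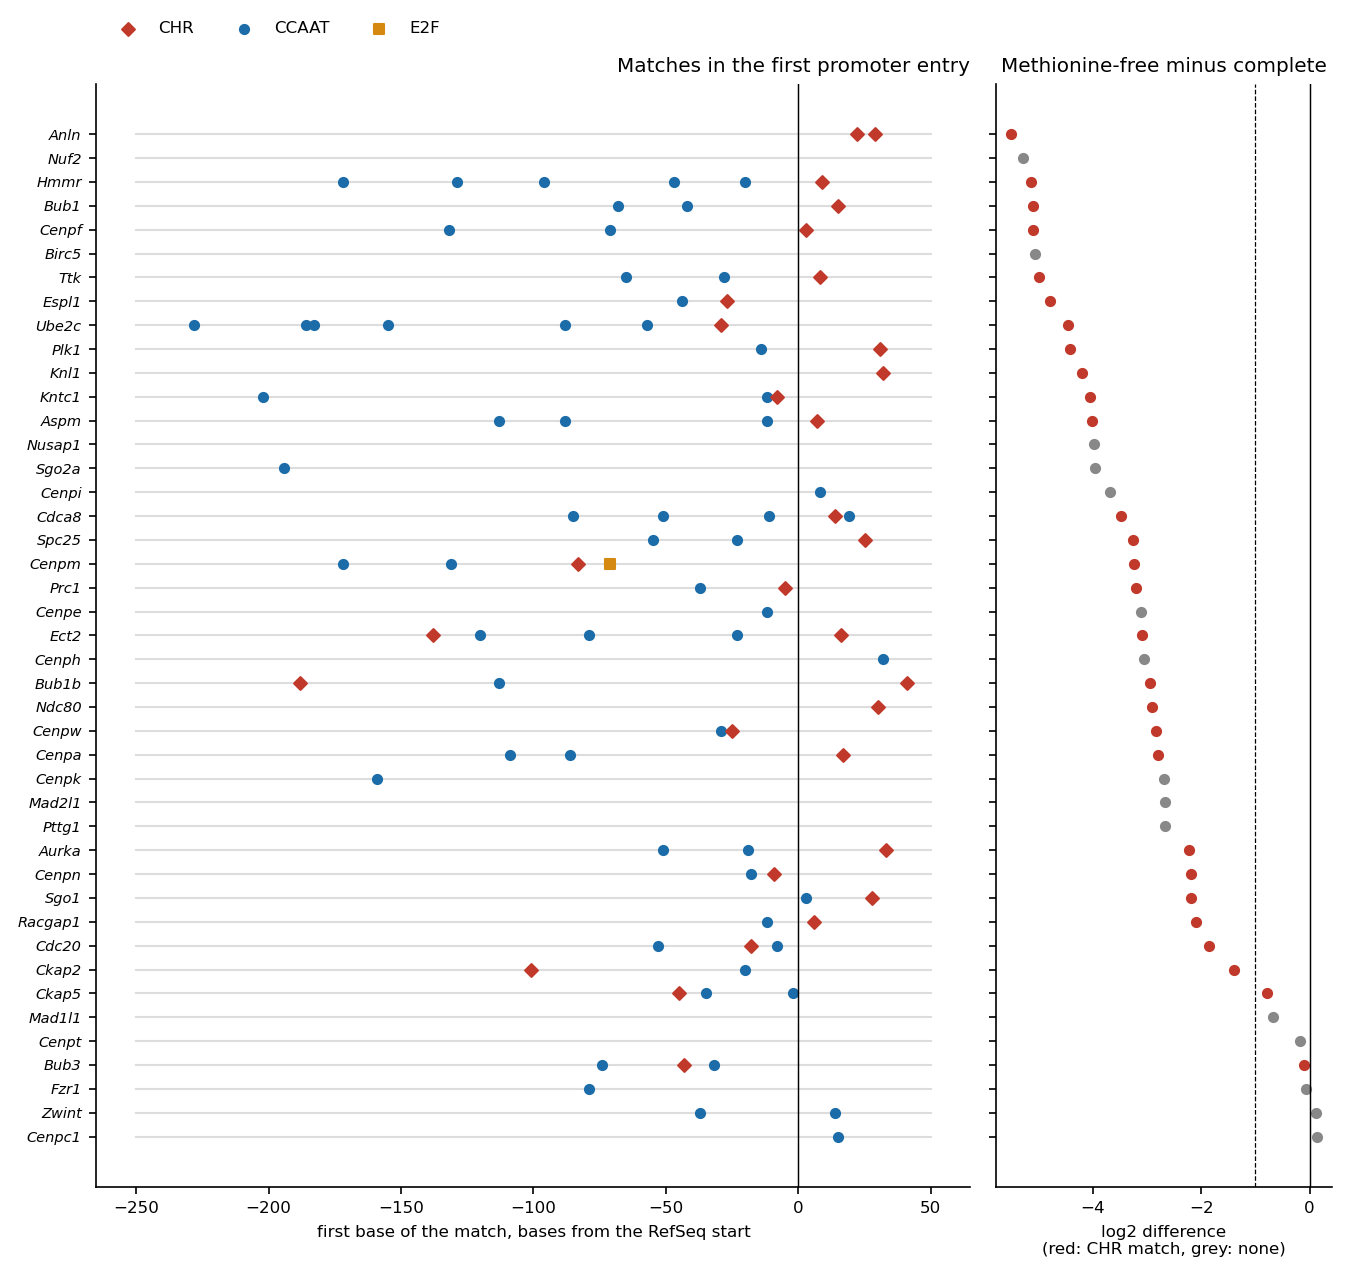
Left, the first base of each CHR, CCAAT and E2F match along 300 bases of promoter for the 43 genes with an entry (the entry with the lowest coordinate where there are several), in bases from the RefSeq start; right, each gene's log2 difference, methionine-free minus complete, red where a promoter entry held a CHR match. Red diamonds gather close to the start, 26 of 28 genes having a match within 50 bases of it, in genes from Anln at the top down to Bub3.

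Of the 8 spindle checkpoint genes, 6 were at least 4-fold lower, with a median log2 difference of -2.90 over the 8. Bub1, which encodes a kinase that recruits checkpoint proteins to the kinetochore (chromosome 2, 127801122 to 127831865, minus strand, GRCm38), was counted 1247 times in the complete library and 48 times in the other. That made it 34.7-fold lower (26.0 to 47.3). Ttk, the gene of the kinase MPS1 that starts checkpoint signalling, had 394 and 16 counts and was 32.9-fold lower (20 to 58.0). The methionine-free library thus held few reads of either kinase gene that sits at the head of the checkpoint.

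Bub1b encodes BUBR1, a part of the complex that inhibits the APC/C, and went from 1531 to 263 counts, 7.77-fold lower (6.81 to 8.89). Mad2l1, the gene of the checkpoint protein MAD2 in the same complex, went from 1432 to 299 counts, 6.39-fold lower (5.64 to 7.26). Kntc1 and Zwilch encode ROD and ZWILCH, subunits of the RZZ complex that builds the outer corona of the kinetochore. Kntc1 had 1651 and 132 counts, 16.7-fold lower (14 to 20.1), and Zwilch 891 and 165 counts, 7.20-fold lower (6.10 to 8.56). Zw10, of the same RZZ complex but also of a vesicle-tethering complex, is not among the 49, was picked after its values were seen, and was at 61.9 and 58.7 CPM.

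Bub3, whose protein carries BUB1 and BUBR1 to the kinetochore and is also linked to splicing, had 2358 and 2935 counts, or 161 and 149.8 CPM. It was 1.07-fold lower (1.01 to 1.13), and its log2 difference of -0.10 became -0.00 when libraries were scaled on the sum of 13 reference genes. Mad1l1, the gene of the kinetochore anchor of MAD2, went from 28.9 to 18.1 CPM, 1.59-fold lower (1.38 to 1.84). Partners in the same complex therefore stood at different ratios in the 2 libraries: Bub1 had 0.529 counts per count of Bub3 in complete medium and 0.0164 without methionine.

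All 6 genes of the mitotic kinases and the chromosomal passenger complex were over 4-fold lower, with a median log2 difference of -3.94, the lowest of the 7 roles. The passenger complex carries Aurora B to centromeres, where it corrects wrong microtubule attachments, and later to the midzone. Aurkb, which encodes Aurora B (chromosome 11, 69045647 to 69051664, plus strand), went from 1967 to 84 counts, 31.2-fold lower (25.1 to 39.3). Per kilobase of merged exons it had the highest level of the 49 genes in complete medium, 45.5 CPM per kb, and ranked 23 in the methionine-free library, with 1.46 CPM per kb.

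Birc5, the gene of survivin, which docks the complex on centromeric histone H3, had 935 and 37 counts and was 33.7-fold lower (24.3 to 48.2). Cdca8, the gene of borealin, had 1162 and 139 counts, 11.2-fold lower (9.35 to 13.4). Incenp, the scaffold that activates Aurora B, had 1966 and 526 counts, 4.99-fold lower (4.53 to 5.50). The 4 genes of this complex thus ranged from 4.99-fold to 33.7-fold lower. Plk1, the Polo-like kinase gene that acts from mitotic entry to cytokinesis, went from 52.6 to 2.45 CPM, 21.5-fold lower (16 to 29.4). Aurka, which encodes the centrosomal Aurora A, went from 31.5 to 6.69 CPM, 4.72-fold lower (3.88 to 5.77).

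Of the 11 centromere protein genes, 9 were at least 4-fold lower, and the median was -2.83. Cenpa encodes the histone H3 variant that marks centromeres and had 621 and 119 counts, 6.96-fold lower (5.71 to 8.54). Cenpc1, whose protein binds that chromatin and anchors the rest of the kinetochore, had 663 and 971 counts, or 45.1 and 49.6 CPM, a ratio of 1.1 (0.993 to 1.21) whose interval held 1. Cenpt, of the other inner anchor, was at 31.7 and 28.0 CPM, 1.13-fold lower (0.999 to 1.28). Cenpc1 and Cenpt thus differed little between the libraries, while the gene of the histone that defines the centromere and that of the direct partner of CENP-T were far lower.

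Cenpw, the histone-fold partner of CENP-T, went from 227 to 42 counts, 7.21-fold lower (5.17 to 10.3). Cenph, Cenpi, Cenpk and Cenpm encode the inner kinetochore group CENP-HIKM. Cenpi had 456 and 47 counts, 12.9-fold lower (9.57 to 17.9), and the other three were between 6.52-fold (Cenpk, 293 and 60 counts) and 9.53-fold lower (Cenpm, 343 and 48 counts), with Cenph at 346 and 55 counts between them. Cenpn, whose protein reads CENP-A nucleosomes, had 344 and 100 counts, 4.59-fold lower (3.66 to 5.79). Of the 2 large corona proteins, the farnesylated Cenpf had 891 and 34 counts, 35.0-fold lower (24.8 to 50.8). The kinesin Cenpe, which moves chromosomes to the spindle equator, had 868 and 134 counts, 8.64-fold lower (7.20 to 10.4). Both corona genes were thus counted alike in complete medium and apart without methionine.

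The outer kinetochore grips microtubules through the NDC80 complex, whose 4 genes were between 7.53-fold and 39.7-fold lower. Nuf2 (chromosome 1, 169497934 to 169531464, minus strand) was counted 684 times with methionine and 23 times without, 39.7-fold lower (26.2 to 63.0). Ndc80, which encodes its coiled-coil partner HEC1, had 643 and 114 counts, 7.53-fold lower (6.16 to 9.27). Their count ratio was 1.06 in complete medium and 0.202 without methionine, although both proteins form a dimer. Spc24 and Spc25, the dimer that faces the chromosome, were 10.6-fold (8.42 to 13.6) and 9.70-fold lower (7.16 to 13.4), from 645 to 81 and from 349 to 48 counts.

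Knl1, the gene of the scaffold on which BUB1, BUB3 and BUBR1 gather, went from 730 to 53 counts, 18.4-fold lower (13.9 to 24.8). Zwint encodes the KNL1 partner that helps hold RZZ at the kinetochore (chromosome 10, 72654845 to 72674964, plus strand). It had 1669 and 2398 counts, or 114 and 122 CPM, and was 1.08-fold higher (1.01 to 1.15). Per kilobase it was the fifth of the 49 genes in complete medium at 25.6 CPM per kb and the first without methionine at 27.6 CPM per kb.

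Among the genes of the APC/C, securin, separase and the shugoshins, 6 of 7 were at least 2-fold lower and the median was -2.66. Cdc20, the coactivator through which the checkpoint controls the APC/C, had 963 and 356 counts, 3.61-fold lower (3.19 to 4.09). Fzr1 encodes CDH1, the coactivator that keeps the APC/C active from late mitosis through G1 and in resting cells. It had 984 and 1248 counts, or 67.0 and 63.7 CPM, 1.05-fold lower (0.967 to 1.14), an interval that held 1, and its log2 difference of -0.07 became 0.02 when libraries were scaled on the reference genes. The counts of both coactivator genes were nearly equal in complete medium, at 0.979 of Cdc20 per count of Fzr1, and stood at 0.285 without methionine.

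Ube2c, the ubiquitin-conjugating enzyme gene that starts chains on APC/C substrates, had 753 and 45 counts, 22.3-fold lower (16.5 to 30.9). Ube2s, the gene of the enzyme that extends them, is not among the 49, was picked after its values were seen, and was at 134 and 109.9 CPM. Pttg1 encodes securin, the inhibitor of separase that the APC/C destroys, and had 282 and 59 counts, 6.38-fold lower (4.80 to 8.59). Espl1, the separase gene, had 1800 and 86 counts, 27.9-fold lower (22.5 to 35.1), so that its counts per count of Pttg1 were 6.38 in complete medium and 1.46 without methionine. Shugoshins protect centromeric cohesin until anaphase. Sgo1 had 419 and 123 counts, 4.54-fold lower (3.71 to 5.6), and Sgo2a 111 and 9 counts, 16.5-fold lower (8.36 to 36.9). Sgo2a shares 2455 exon bases with Kctd18 on the opposite strand, which had 266 and 517 counts, so its few counts are uncertain if the counting ignored strand.

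The spindle assembly genes had a median of -2.95, and 6 of 7 were at least 2-fold lower. Hmmr, which encodes a spindle pole protein that is also a hyaluronan receptor, had 675 and 25 counts, 36.0-fold lower (24.2 to 56.1). Aspm, a minus-end protein gene mutated in microcephaly, and Nusap1, a microtubule-bundling protein gene, were 16.3-fold (12.3 to 21.9) and 15.8-fold lower (12.4 to 20.5), from 646 to 53 and from 829 to 70 counts. Tpx2, the activator of Aurora A at the spindle, had 1800 and 311 counts, 7.72-fold lower (6.84 to 8.74). Dlgap5, the gene of the kinetochore-fibre protein HURP, had 997 and 188 counts, 7.08-fold lower (6.05 to 8.31).

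The CKAP genes, named for their place in the cytoskeleton and not for a shared family, differed least in this role. Ckap2, a spindle protein gene, went from 27.8 to 10.6 CPM, 2.62-fold lower (2.21 to 3.12), which was the smallest difference among the 42 lower genes. Ckap5 encodes chTOG, a microtubule polymerase that cells also use outside mitosis, and went from 169.8 to 98.3 CPM, 1.73-fold lower (1.63 to 1.83). Ckap5 had the highest CPM of the 49 genes in complete medium.

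All 4 midzone and cytokinesis genes were lower by over 4-fold, and their median was -3.14. Anln, which encodes the actin- and septin-binding ring protein anillin (chromosome 9, 22332012 to 22389188, minus strand), was counted 460 times with methionine and 13 times without. At 47.2-fold lower (27.3 to 89.3) it had the lowest log2 difference of the 49 genes, -5.50, and ranked 15 from the lowest of all 13041. Prc1, the antiparallel microtubule bundler of the midzone, had 763 and 111 counts, 9.17-fold lower (7.51 to 11.3). It shares 911 exon bases with Rccd1 on the opposite strand, which had 412 and 486 counts. Ect2, which encodes the exchange factor that activates RhoA at the equator, had 623 and 97 counts, 8.57-fold lower (6.91 to 10.7). Racgap1, the centralspindlin subunit gene that recruits ECT2, had 2346 and 729 counts, 4.29-fold lower (3.95 to 4.67), and was the most counted of the 42 lower genes in both libraries.

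The differences between partners were set against counting error by the ratio of their folds. Of 25 pairs of complex partners or paralogues, listed after the values were known, 21 had a 95% interval that did not hold 1. No share was computed for other gene pairs, so this count has no background to be read against. The fold of Bub1 was 4.46 times that of its paralogue Bub1b (3.24 to 6.26), and that of Aurkb was 6.62 times that of Aurka (4.90 to 8.98). Within complexes, Nuf2 stood at 5.27 times the fold of Ndc80 (3.29 to 8.76), Birc5 at 6.76 times that of Incenp (4.79 to 9.79), and Espl1 at 4.37 times that of Pttg1 (3.01 to 6.32). The interval held 1 for Spc24 against Spc25, at 1.1 (0.732 to 1.62). It also held 1 for the 3 listed pairs within CENP-HIKM, at 1.29 to 1.54. Other pairs of that group were not computed, among them Cenpi and Cenpk, the furthest apart at 12.9-fold and 6.52-fold lower. The printed intervals hold no spread between cultures, so how far such gaps between partners would recur in other libraries was not tested.

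**Figure D3:**
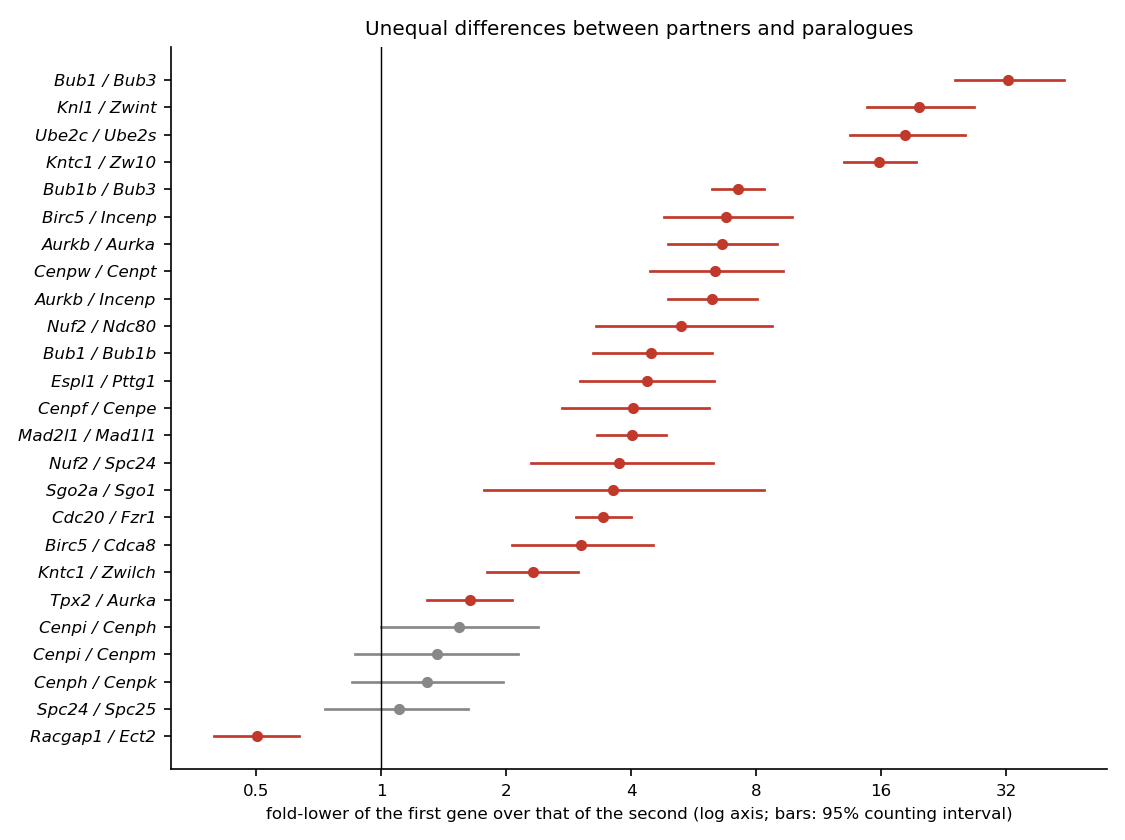
Each point is the fold by which the first gene was lower divided by that of the second, with its 95% counting interval, on a log axis; grey marks intervals that hold 1. The ratio runs from 0.501 for Racgap1 over Ect2 to 32.3 for Bub1 over Bub3, and 21 of the 25 intervals lie to one side of 1.

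Levels per kilobase of merged exons were ranked in each library. In complete medium the highest were Aurkb at 45.5, Cdc20 at 35.1, Incenp at 30.9 and Tpx2 at 26.2 CPM per kb, and the lowest was Sgo2a at 1.08. Without methionine the highest were Zwint at 27.6, Bub3 at 21.4, Fzr1 at 14.2 and Ckap5 at 10.4 CPM per kb, all of them among the 7 genes that were not 2-fold lower. Cdc20 followed at 9.73 CPM per kb, the highest of the 42. Across the 49 genes, Spearman's rho between the complete-medium level per kb and the log2 difference was 0.20, a description of genes that share both libraries.

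Neighbouring parts of the same machinery were read from 6 lists of 137 other genes. Of these, 36 were lower and 2 higher by the 2-fold size, against 9.29% and 5.80% of all measured genes, and their median was -0.32. The other kinetochore genes came closest to the 49, with 14 of 25 at least 2-fold lower, none higher and a median of -1.09. Ska1, whose protein couples kinetochores to shrinking microtubules, was 13.5-fold lower (8.54 to 22.6). Other spindle and centrosome genes had 14 of 40 lower, none higher and a median of -0.73, led by the centrosomal kinase gene Nek2 at 23.7-fold (15.6 to 37.8) and the abscission gene Cep55 at 23.1-fold (16.7 to 33.0).

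The APC/C and cohesin lists held 1 and 3 genes past 2-fold. Of the 16 genes of the APC/C core list, 1 was at least 2-fold lower and none higher, a share near or under the 9.29% and 5.80% of all measured genes, and the median was -0.27. The lower one was Fbxo5, which encodes the APC/C inhibitor EMI1 and no core subunit, at 6.0-fold (5.14 to 7.03); the next was the catalytic subunit gene Anapc11 at 1.84-fold (1.68 to 2.03). In the cohesin list 3 of 15 were lower, a share above the 9.29% of all measured genes. None was higher, and the median was -0.20. All 3 act in S phase or mitosis: Esco2, the cohesin acetyltransferase gene of replication, was 22.1-fold lower (16.3 to 30.8), Cdca5, the gene of sororin, 16.3-fold (12.7 to 21.3), and Haspin, the kinase gene that recruits the passenger complex, 6.26-fold (4.89 to 8.10).

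The cytokinesis and abscission list held 2 lower genes of 27 and 1 higher, and its median was 0.09, so that neither share was above the 9.29% and 5.80% of all measured genes. The lower ones were Cit, the citron kinase gene of the midbody, at 12.7-fold (10.0 to 16.3), and the formin gene Diaph3 at 5.97-fold (5.04 to 7.11). The higher one, the ESCRT gene Chmp4c, had 2 and 21 counts, a ratio of 7.87 (1.92 to 69.2). Among 14 genes of the MuvB, B-Myb and FoxM1 list, which bind the CHR or act with it, 2 were lower and 1 was higher. Of all measured genes 9.29% and 5.80% were, and the list's median was -0.28. Foxm1 went from 1029 to 96 counts, 14.3-fold lower (11.6 to 17.8), and Mybl2, the B-Myb gene, from 1257 to 132, 12.7-fold (10.6 to 15.3). Both encode factors that are known to activate such promoters in G2. Whether the levels of this list's genes bear on those of genes with a CHR match was not tested. E2f5, which encodes a partner of the repressing form of the complex, was 2.05-fold higher (1.73 to 2.44). Of the list's other E2f, Rbl and Tfdp genes, Rbl2 was 1.16-fold higher. E2f4, Tfdp2, Rbl1 and Tfdp1 were 1.23-fold, 1.36-fold, 1.82-fold and 1.88-fold lower. Haspin, Chmp4c and all genes of the MuvB, B-Myb and FoxM1 list but Foxm1 and Mybl2 were named after their values were seen.

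**Figure D4:**
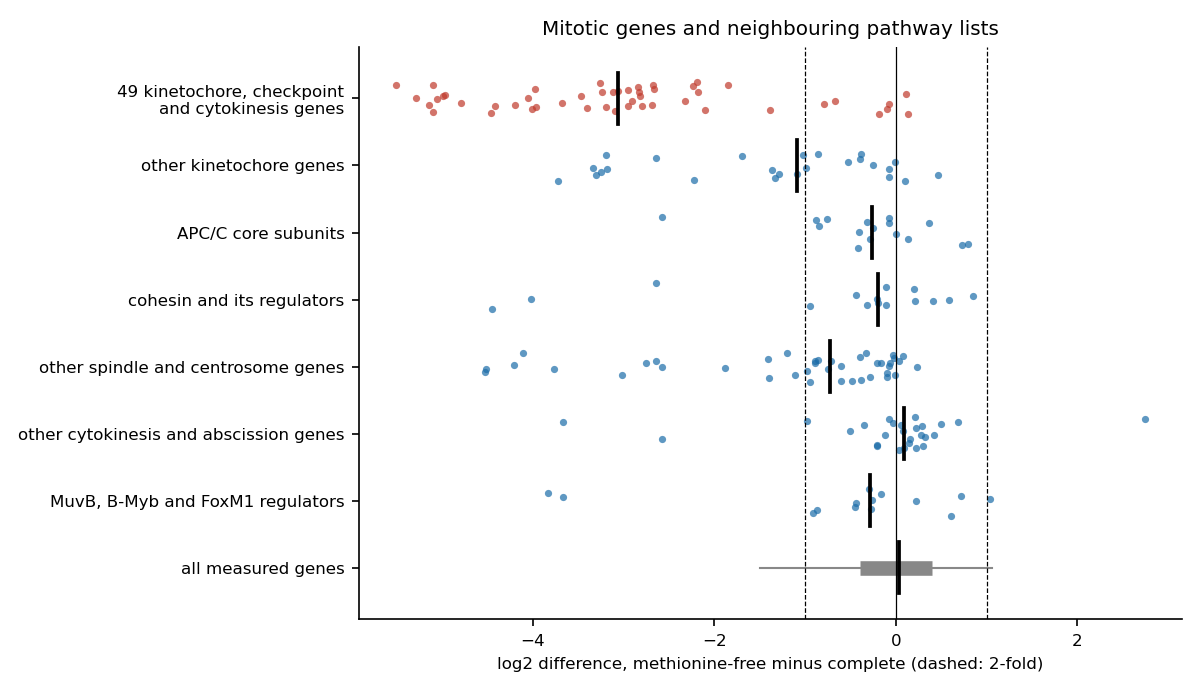
Log2 difference, methionine-free minus complete, for each of the 49 genes (red) and each gene of the 6 neighbouring lists (blue), with the list median as a black bar; for all 13041 measured genes the thick bar spans the middle 50% and the thin line the 5th to 95th percentile. The 49 genes centre at -3.06, left of every blue list's median, and of the 42 lower ones all but Ckap2 lie beyond the 5th percentile of all genes, at -1.50.

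Shared sequence bears on 10 of the 49 genes, which share exon bases or a stretch of at least 300 bases at 95% identity or more with another gene that had a mean of at least 10 counts. Without those 10, 34 of 39 genes were at least 2-fold lower and the median was -3.09. Besides Sgo2a and Prc1, the genes that overlapped such a gene on the opposite strand were Cdc20 with Elovl1, Cdca8 with 9930104L06Rik, Cenpk with Ppwd1, Nusap1 with Oip5, and Fzr1 with Mfsd12 over 4 bases. Cenpt, Plk1 and Zwilch overlapped opposite-strand genes with at most 5 counts in a library. The sources used here do not say whether strand was used in counting, so reads of such pairs may be mixed. Cenpc1 shares a near-identical stretch with Gtdc1, and Cenpw with Gm29666, which had 26 and 42 counts. Ndc80 shares one with the pseudogene 2700099C18Rik, which had 137 and 9 counts, so reads may have been split between them.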

How the data were processed

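Gene-level read counts of both libraries were used as deposited; per the labels' protocols, TRIzol was used to extract RNA and ABclonal kits to make the libraries. The submitters' processing notes name the build mm10; aligner, counter and strand setting: not given in the sources used here. Of 54532 identifiers, 54495 matched GENCODE M21; the other 37 held 0.00742% and 0.00910% of counts. Counts were scaled by TMM (edgeR 4.0.16; factors 1.003 and 0.997), which made 1 count 0.0681 CPM in the complete library and 0.0510 CPM in the other. A gene was measured where its mean reached 10 counts. Log2 differences used a prior count of 0.5; printed folds are ratios of scaled counts without it, with exact conditional binomial (Clopper-Pearson) 95% intervals from scipy 1.17.1, and ratios of folds used the conditional odds ratio. The labels name no molecular identifiers, and PCR copies are not independent molecules, so intervals cover counting error only. With 1 library per medium no test across replicates was possible, and calls are by size, at 2-fold. The calculations were tested on simulated data.

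The 49 genes and all lists were chosen with earlier results of these data known. All 49 are named; of each neighbouring list, the 2 genes with the largest absolute log2 difference at a mean of at least 50 counts, 1 of which is not reported here; of the check lists, Cd8a, Cd8b1, the most abundant gene and genes a result turns on. Alternatives were other scalings (library size, DESeq2 1.42.0 size factors, upper quartile, reference genes), a prior count of 5, other count minimums and other fold thresholds, and, chosen after seeing the data, leaving out genes with shared sequence.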

Additional observations from a re-analysis of the deposited data

How the results depend on the processing

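The count of 42 of the 49 genes at least 2-fold lower was the same under 4 other scalings, a prior count of 5 and no count minimum. It was 41 of 48 at a mean of at least 100 counts, 44 at a 1.5-fold threshold and 40 at 4-fold, and no gene was past the threshold in the higher direction in any of these. The background moved more: over all genes, 4877 were lower and 3333 higher with no minimum, 576 and 264 at a mean of at least 100 counts, 2346 and 2050 at 1.5-fold, and 389 and 120 at 4-fold, since these settings change which genes or sizes are counted. Scaling on the sum of reference genes shifted the median of all genes by 0.10 and moved Bub3 to -0.00, Zwint to 0.20 and Ckap5 to -0.69. No paired analysis was possible because each medium has 1 library, and for the same reason no replicate could be left out. Sgo2a, with 9 counts without methionine, and Anln, with 13, have the widest intervals.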
